A study of Mus musculus with 48 samples.

Results

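Which transmitter a neuron releases can be read from a small set of genes, and 6 of these were examined in RNA sequencing of the right amygdala of 48 female mice. The genes were taken by symbol and are Gad1, Gad2 and Slc32a1 for GABA and Slc17a7, Slc17a6 and Slc17a8 for glutamate. All 6 were matched to an Ensembl gene ID in a table of 52636 gene IDs, and none of them was listed at 0 in any library. Levels are in TPM, a share of all transcripts of a library after division by transcript length, so that levels of different genes can be set side by side.

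The mice were WT or Brd1+/- (heterozygous for a targeted deletion in Brd1, a gene for a chromatin reader protein, from a single targeted line, so that every cell of the body carries it), of the strain labelled C57BL/6NTac-Brd1 and 8 to 11 weeks of age. Each genotype received vehicle (saline), 10 mg/kg imipramine (IMN, a tricyclic antidepressant) or 5 mg/kg fluoxetine (FLX, a selective serotonin reuptake inhibitor), which gave 6 groups of 8 libraries. Controls too had been injected and put through behavioural tests that ended in forced swimming before the brain was collected, so no group is a naive one. Each library came from a 1-mm-wide punch of a frozen slice, so it holds whatever tissue the needle took, and in such bulk RNA fewer cells of a type and less RNA per cell cannot be told apart. The mice were litter-matched, but no fit included litter. In comparisons of groups, p-values measure the spread between the libraries of a group, and in correlations the spread over all libraries.

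GABA, the main inhibitory transmitter, is made from glutamate by 2 glutamate decarboxylases, GAD67 (Gad1) and GAD65 (Gad2), and is loaded into vesicles by the vesicular GABA transporter (Slc32a1). Glutamate is loaded by VGLUT1 (Slc17a7), VGLUT2 (Slc17a6) or VGLUT3 (Slc17a8). VGLUT1 is typical of neurons of cortical origin, including the basolateral amygdala and hippocampus, VGLUT2 of the thalamus, the hypothalamus and parts of the medial amygdala, and VGLUT3 of scattered cells that often release another transmitter as well, such as striatal cholinergic interneurons. The central amygdala and the striatum are built mostly of GABA neurons, so a punch at the border of these areas can hold very different mixtures.

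In the GRCm38 build, Gad1 (ENSMUSG00000070880) is at chr2:70553072-70602014, Gad2 (ENSMUSG00000026787) at chr2:22622205-22693874 and Slc32a1 (ENSMUSG00000037771) at chr2:158610767-158615748, all on the plus strand. Slc17a7 (ENSMUSG00000070570) is at chr7:45163949-45176142 and Slc17a6 (ENSMUSG00000030500) at chr7:51622006-51671119, both on the plus strand, and Slc17a8 (ENSMUSG00000019935) is at chr10:89574020-89621253 on the minus strand. The setting for strand in the counting is not given in the sources used here, so reads of an overlapping antisense gene cannot be told apart from those of its partner. The antisense gene Gad1os, listed at a median of 0.904 TPM and at most 3.04 TPM, overlaps Gad1, and Gm14205, at a median of 0 TPM, overlaps Slc32a1.

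The 250 bases before the RefSeq start (GRCm38.p6) are shown for the 5 members that carry the main contrast between libraries, the GABA genes with Slc17a7 and Slc17a6. Capitals mark any of 4 short motifs searched on both strands, with overlapping matches counted: a TATA box (TATAAA), an E-box (CANNTG), a GC box (GGGCGG) and a homeodomain core (TAATT). For Slc17a6 the start nearer to the 5′ end of the gene is shown. The Gad1 stretch lies wholly inside the span given above for that gene, and the Gad2 stretch overlaps the start of its span.
Gad1, chr2:70561879-70562128, plus strand: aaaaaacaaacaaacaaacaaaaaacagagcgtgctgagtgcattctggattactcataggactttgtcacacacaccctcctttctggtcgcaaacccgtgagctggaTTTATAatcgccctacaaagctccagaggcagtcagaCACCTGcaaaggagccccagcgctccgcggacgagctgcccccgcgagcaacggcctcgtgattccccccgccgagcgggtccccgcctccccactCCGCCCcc
Gad2, chr2:22622077-22622326, plus strand: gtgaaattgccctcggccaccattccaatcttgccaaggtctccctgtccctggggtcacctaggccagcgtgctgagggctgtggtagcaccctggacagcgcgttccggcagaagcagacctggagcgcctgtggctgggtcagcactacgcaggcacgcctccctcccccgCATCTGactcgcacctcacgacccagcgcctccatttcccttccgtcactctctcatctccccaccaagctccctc
Slc32a1, chr2:158610508-158610757, plus strand: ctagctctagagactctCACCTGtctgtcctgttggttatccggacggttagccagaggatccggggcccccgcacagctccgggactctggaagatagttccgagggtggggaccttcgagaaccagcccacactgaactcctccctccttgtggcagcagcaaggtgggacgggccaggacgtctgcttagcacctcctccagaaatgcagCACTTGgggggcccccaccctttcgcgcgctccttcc
Slc17a7, chr7:45163671-45163920, plus strand: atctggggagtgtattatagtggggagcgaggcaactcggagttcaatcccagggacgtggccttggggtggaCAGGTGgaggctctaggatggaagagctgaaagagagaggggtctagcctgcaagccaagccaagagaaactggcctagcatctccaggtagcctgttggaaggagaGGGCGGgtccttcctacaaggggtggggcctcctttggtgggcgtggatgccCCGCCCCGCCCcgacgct
Slc17a6, chr7:51621580-51621829, plus strand: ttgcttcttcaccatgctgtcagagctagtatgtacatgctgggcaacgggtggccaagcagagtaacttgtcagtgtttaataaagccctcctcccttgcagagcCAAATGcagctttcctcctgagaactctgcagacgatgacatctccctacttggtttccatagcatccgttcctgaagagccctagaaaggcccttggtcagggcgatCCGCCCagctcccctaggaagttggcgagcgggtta

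Among 32851 RefSeq promoters of the same length, 12.4% held a TATA box, 66.2% an E-box, 32.7% a GC box and 25% the homeodomain core. Of the 5 sequences shown, the TATA box was in Gad1 alone, and an E-box was in each, with 2 in Slc32a1 and 1 in each of the others. Slc17a7 held 3 GC boxes, Gad1 and Slc17a6 held 1 each, and Gad2 and Slc32a1 held 0. The homeodomain core was in none of the 5, while the inner starts of Slc17a6 and Slc17a8, which are not shown, held 2 and 3. GC content was 58% for Gad1, 64% for Gad2, 62.4% for Slc32a1, 61.2% for Slc17a7 and 53.2% for Slc17a6, against a median of 52.4% over all promoters. The motif matches describe these letters only.

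The libraries summed to 999524 to 999772 TPM each, with 23420 to 27252 genes above 0 TPM, and no pair held identical values. Depth in reads is unknown from TPM, so no counting error is given. Brd1 itself averaged 35.6 ± 5.09 TPM (SD, n = 8) in WT vehicle, 36.9 ± 2.83 in WT IMN and 32.9 ± 4.45 in WT FLX, against 26.0 ± 2.90, 23.4 ± 4.84 and 23.5 ± 3.49 TPM in the Brd1+/- groups in the same order. A list of 8 amygdala genes, led by Lmo3, summed to between 147 and 853 TPM in the libraries, with a median of 363 TPM. WT vehicle replicate 1 and Brd1+/- FLX replicate 8 stood apart, with the lowest pan-neuronal scores of the 48 libraries and choroid plexus genes summing to 29697 and 29052 TPM, and results that rest on these libraries were also computed without them. Other libraries with choroid plexus RNA stayed in that check, among them Brd1+/- vehicle replicate 3 and WT FLX replicate 2 at 10772 and 8813 TPM. The median over all libraries was 23.9 TPM.

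The GABA genes were high in every library and kept nearly the same order. Gad1 ranged from 186 to 843 TPM over the 48 libraries with a median of 380.8 TPM, a 4.53-fold span. Gad2 ranged from 74.9 to 385 TPM with a median of 219 TPM, a 5.15-fold span. Slc32a1 ranged from 41.4 to 311 TPM with a median of 185 TPM, a 7.51-fold span. Gad1 was above Gad2 and above Slc32a1 in 48 of 48 libraries, and Gad2 was above Slc32a1 in 42 of 48, which is 7 of 8 in every group. The ratio of Gad1 to Gad2 lay between 1.19 and 2.97 with a median of 1.77.

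The glutamate transporters behaved otherwise, and their levels were spread over orders of magnitude. Slc17a7 ranged from 1.87 TPM in Brd1+/- FLX replicate 2 to 1346 TPM in WT vehicle replicate 2, a 720-fold span with a median of 152 TPM. Slc17a6 ranged from 0.0850 TPM in WT vehicle replicate 3 to 143 TPM in WT FLX replicate 3, with a median of 24.3 TPM. Slc17a8 was low throughout, at 0.123 to 7.55 TPM with a median of 2.14 TPM. The means over all libraries, at 329 ± 381.01 TPM for Slc17a7, 39.96 ± 40.2 TPM for Slc17a6 and 2.50 ± 2.09 TPM for Slc17a8 (SD, n = 48), had SDs close to or above the mean itself. For the GABA genes the SD was a smaller part of the mean, at 407.1 ± 143 TPM for Gad1, 225 ± 82.9 TPM for Gad2 and 184 ± 65.7 TPM for Slc32a1.

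**Figure D1:**
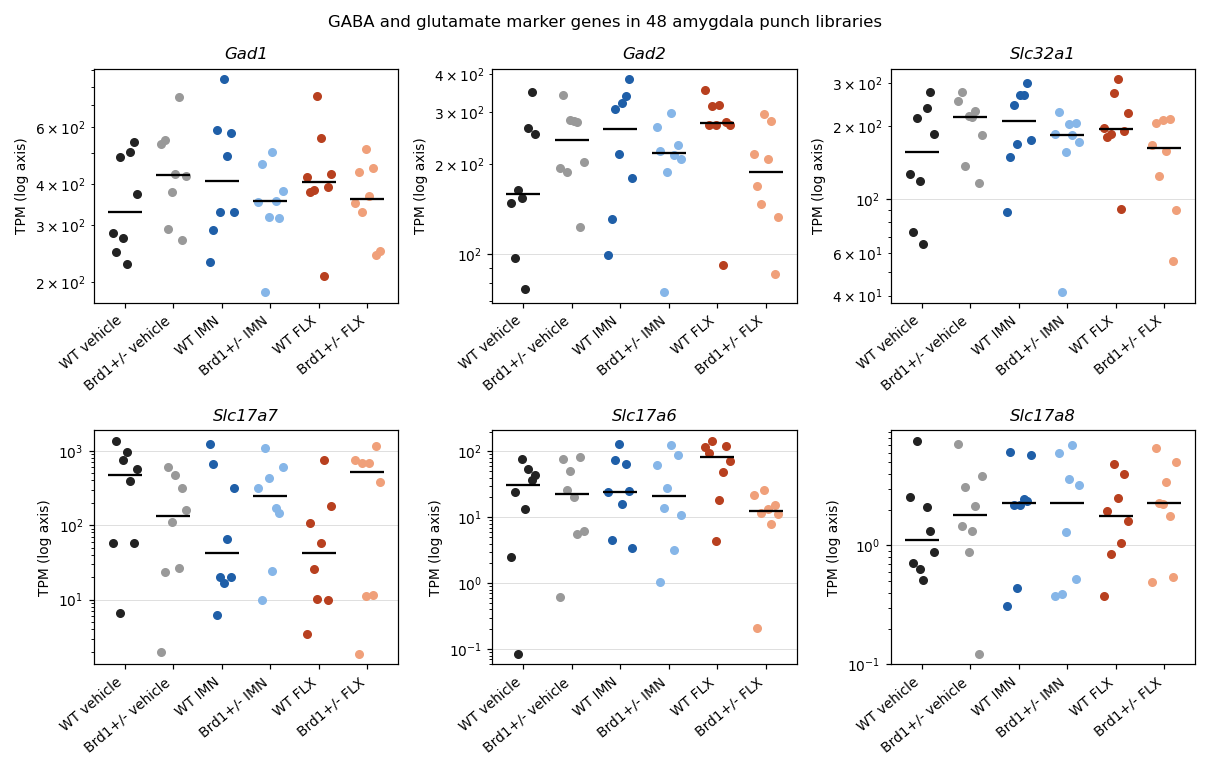
Levels of the 6 genes in TPM on a log axis, 1 panel a gene, with 1 point a library and a line at the group median, over the 6 groups of 8. Slc17a7 and Slc17a6 scatter over orders of magnitude inside every group, whereas Gad1 stays between 186 and 843 TPM.

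This spread lay inside the groups. The SD of log2(TPM + 0.1) within groups was 0.50 for Gad1, 0.63 for Gad2 and 0.65 for Slc32a1, but 2.81 for Slc17a7, 2.24 for Slc17a6 and 1.37 for Slc17a8. Among the 19222 genes with a mean of at least 1 TPM, where the median SD was 0.38, Slc17a7 stood at percentile 99.5, Slc17a6 at 98.04 and Slc17a8 at 91.8. The GABA genes stood at percentiles 64.0, 72.9 and 74.1, so they too varied more than the median gene.

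Which vesicular glutamate transporter led also differed from library to library. Slc17a7 was the highest of the 3 in 36 of 48 libraries, Slc17a6 in 9 and Slc17a8 in 3. The share of Slc17a7 in the summed TPM of the 3 transporters ran from 2.83% to 98.7% with a median of 78.5%. Slc17a6 led in 3 libraries of WT IMN, 3 of WT FLX, 1 of each other group except WT vehicle, and 0 of WT vehicle. The 3 libraries led by Slc17a8 were WT vehicle replicate 3, Brd1+/- vehicle replicate 1 and Brd1+/- FLX replicate 2, where Slc17a8 made up 53.2%, 73.2% and 76.0% of the sum. Slc17a7 exceeded Gad1 in 18 of 48 libraries, and these lay in all 6 groups, with 1 in WT FLX and 5 in Brd1+/- FLX as the fewest and the most.

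**Figure D2:**
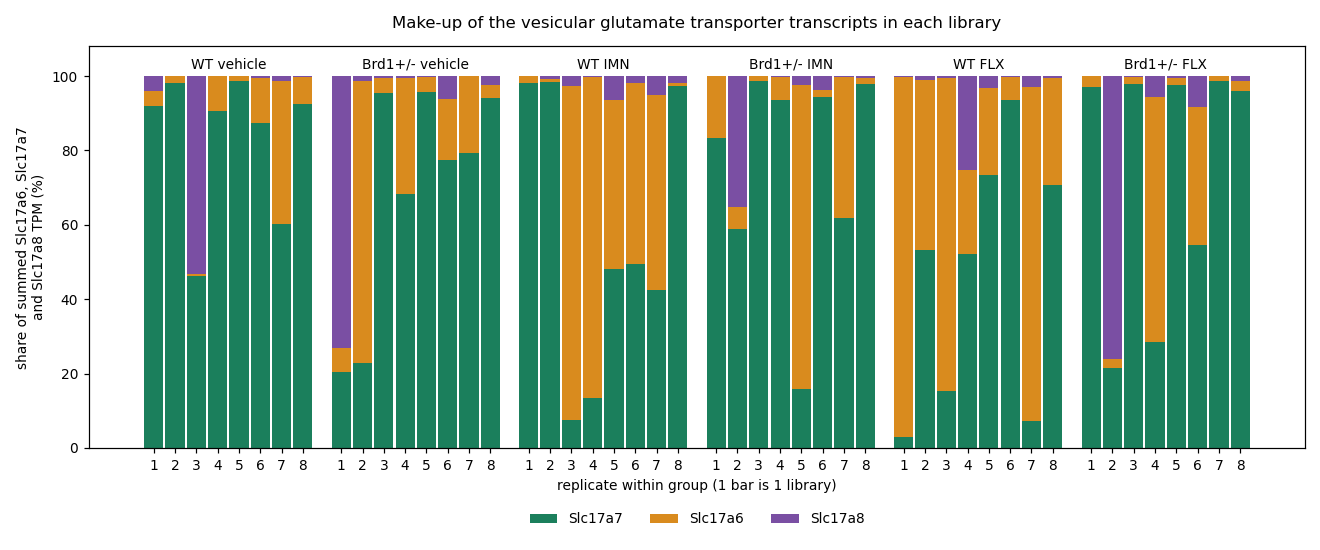
Share of Slc17a7, Slc17a6 and Slc17a8 in their summed TPM, in percent, as 1 stacked bar for each of the 48 libraries by group. Slc17a7 fills over 50% of the bar in 34 of 48 libraries but in only 3 of 8 in WT IMN, falls to as little as 2.83%, and Slc17a8 leads in 3 libraries.

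The levels moved together in a regular way over the libraries, computed on log2(TPM + 0.1) for all 15 pairs, with permutation p-values (two-sided, 100000 permutations, smallest possible p 1e-05) adjusted over the 15. The GABA genes rose and fell with each other. Gad2 and Slc32a1 had r = 0.91 (rho = 0.84), Gad1 and Slc32a1 r = 0.88 (rho = 0.94) and Gad1 and Gad2 r = 0.82 (rho = 0.81), each with permutation p = 1e-05 and adjusted p = 2.5e-05. Without the 2 libraries farthest from the median, r was 0.89, 0.88 and 0.80. Vehicle and drug-treated mice carry separate ranges of sample codes, so these were also taken apart, and r was 0.92, 0.90 and 0.80 over the 16 vehicle libraries and 0.91, 0.87 and 0.84 over the 32 drug libraries.

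Slc17a7 ran against all 3 GABA genes. Its r was -0.70 with Gad1 (rho = -0.74, adjusted permutation p = 2.5e-05), -0.65 with Slc32a1 (rho = -0.72, adjusted p = 2.5e-05) and -0.58 with Gad2 (rho = -0.62, adjusted p = 6.43e-05). The 3 values were -0.68, -0.64 and -0.36 over the vehicle libraries and -0.72, -0.66 and -0.68 over the drug libraries. Without the 2 farthest libraries they were -0.70, -0.64 and -0.54.

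Slc17a6 followed neither pole. Its r was -0.12 with Gad1 (permutation p = 0.427) and -0.02 with Slc32a1 (p = 0.886), and with Gad2 it was 0.27 (rho = 0.40, p = 0.0591, adjusted p = 0.0806). With Slc17a7 it had r = 0.23 (rho = -0.0024, p = 0.111, adjusted p = 0.128), which was 0.68 over the vehicle libraries, 0.0058 over the drug libraries and 0.03 without the 2 farthest libraries, so no single relation held across the libraries. It was opposed to Slc17a8, with r = -0.63 (rho = -0.59, adjusted permutation p = 2.5e-05), which was -0.76 in vehicle, -0.57 in drug and -0.57 without the 2 farthest libraries.

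Slc17a8, the rarest member, was aligned with the GABA pole. It had r = 0.44 with Gad1 (rho = 0.41, adjusted permutation p = 0.00313), 0.43 with Slc32a1 (rho = 0.32, adjusted p = 0.00357) and -0.40 with Slc17a7 (rho = -0.41, adjusted p = 0.00867). With Gad2 its r was 0.23 (rho = 0.05, p = 0.111). Of the 15 pairs, 10 had an adjusted p under 0.05, 5 of them positive and 5 negative, and all 10 had the same sign in the vehicle libraries, in the drug libraries and without the 2 farthest libraries.

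**Figure D3:**
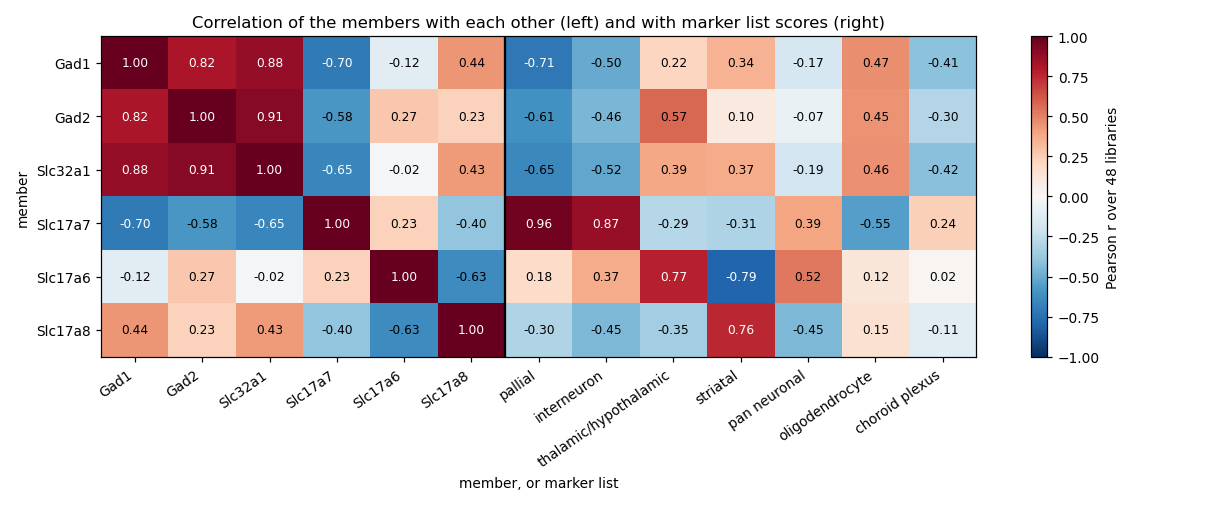
Pearson r of log2(TPM + 0.1) over the 48 libraries as a coloured matrix, for the pairs of the 6 genes on the left and for each gene with 7 marker list scores on the right. Gad1, Gad2 and Slc32a1 form a positive block (0.82 to 0.91), Slc17a7 is negative with each of them, and Slc17a6 is close to 0 with Gad1 and Slc32a1.

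The position of each member between cortical and subcortical tissue was read against lists of marker genes, scored as the mean log2(TPM + 0.1) of a list, over 42 relations of a member with a list. Slc17a7 tracked the 10 pallial (cortical-type) genes most closely, with r = 0.96 (rho = 0.96, permutation p = 1e-05, adjusted p = 6e-05), 0.98 in vehicle, 0.95 in drug and 0.96 without the 2 farthest libraries. Gene by gene, r with Slc17a7 was 0.98 for Neurod2 and 0.95 for Neurod6, transcription factors of cortical excitatory neurons, and 0.93 for Emx1, but 0.42 for Nrgn and 0.08 for Lamp5. Its r of 0.87 with the interneuron list (rho = 0.89, adjusted permutation p = 6e-05) was unevenly carried, with 0.97 for Cck and 0.78 for Vip but -0.42 for Pvalb, and Cck is also made by cortical excitatory cells.

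The GABA genes went the other way. Their r with the pallial list was -0.71 for Gad1, -0.65 for Slc32a1 and -0.61 for Gad2, each with an adjusted permutation p of at most 0.000105 and rho of -0.72, -0.69 and -0.60. These values were -0.74, -0.72 and -0.46 in vehicle and -0.71, -0.62 and -0.67 in drug libraries. Gad2 was the GABA gene most aligned with the thalamic and hypothalamic list, at r = 0.57 (rho = 0.65, adjusted p = 0.00021), against 0.39 for Slc32a1 (rho = 0.38, adjusted p = 0.0117) and 0.22 for Gad1 (rho = 0.31, adjusted p = 0.174). The differences between these coefficients were not tested. With the striatal list, Slc32a1 had r = 0.37 (rho = 0.33, adjusted p = 0.0157), Gad1 0.34 (rho = 0.39, adjusted p = 0.0258) and Gad2 0.10 (rho = 0.02, adjusted p = 0.540).

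Slc17a6 ran in opposite directions with the subcortical lists. It rose with the 13 thalamic and hypothalamic genes, at r = 0.77 (rho = 0.86, adjusted permutation p = 6e-05), 0.73 in vehicle, 0.81 in drug and 0.76 without the 2 farthest libraries. It fell as the 10 striatal genes rose, at r = -0.79 (rho = -0.71, adjusted permutation p = 6e-05), -0.86 in vehicle, -0.75 in drug and -0.75 without the 2 farthest. All 10 striatal genes had a negative r with it, the strongest being Ppp1r1b, which encodes DARPP-32 of striatal projection neurons, at -0.87. Slc17a8 was its mirror image, with r = 0.76 on the striatal list (rho = 0.72, adjusted p = 6e-05), 0.81 in vehicle, 0.74 in drug and 0.72 without the 2 farthest.

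Of all 42 relations, 28 had an adjusted p under 0.05, 14 positive and 14 negative, and all 28 had the same sign in vehicle, in drug and without the 2 farthest libraries. The share of tissue types and the levels of the members come from the same libraries, so these relations describe the punches and are not independent measurements. Glial RNA moved with the members too. The oligodendrocyte score had r = -0.55 with Slc17a7 (rho = -0.61, adjusted permutation p = 0.000187), and 0.47, 0.45 and 0.46 with Gad1, Gad2 and Slc32a1 (rho = 0.42, 0.43 and 0.38, adjusted p = 0.00267 for the first and 0.00274 for the others). The part of the oligodendrocyte content in the relations between members was not tested.

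**Figure D4:**
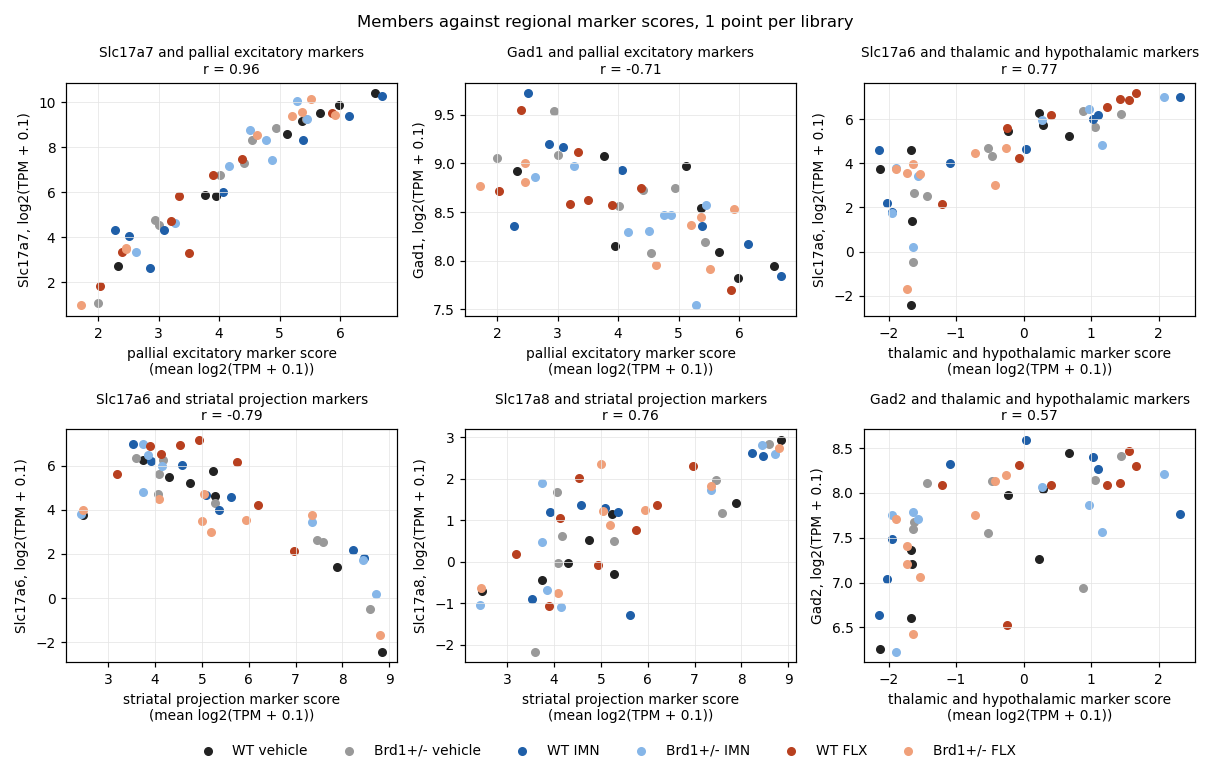
Member level against marker list score, both as log2(TPM + 0.1), 1 point a library, coloured by group. Slc17a7 rises along the pallial score (r = 0.96), Slc17a6 rises along the thalamic and hypothalamic score (r = 0.77) and falls along the striatal score (r = -0.79), and libraries of each group are scattered along these lines.

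Single libraries show these poles. The 4 libraries lowest in Slc17a6 held the 4 highest striatal sums of all 48. WT vehicle replicate 3 had 0.0850 TPM of Slc17a6, 6.56 of Slc17a7 and 7.55 of Slc17a8, with striatal genes summing to 8816 TPM. Brd1+/- FLX replicate 2 had 0.211, 1.87 and 6.57 TPM of the same genes with a striatal sum of 8487 TPM. Brd1+/- vehicle replicate 1 and Brd1+/- IMN replicate 2, with 0.611 and 1.04 TPM of Slc17a6, had striatal sums of 7553 and 7689 TPM. These libraries come from 4 groups, and each is poor in both main glutamate transporters.

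At the other end, the 5 libraries highest in Slc17a6 were rich in thalamic and hypothalamic genes and poor in Slc17a7. WT FLX replicates 3, 7 and 1 had 143, 121.4 and 117 TPM of Slc17a6 with 26.0, 9.91 and 3.42 TPM of Slc17a7, and thalamic and hypothalamic sums of 99.4, 101.9 and 113 TPM. WT IMN replicate 4 and Brd1+/- IMN replicate 5 had 128 and 126.2 TPM of Slc17a6 with sums of 116 and 96.5 TPM. The 5 libraries highest in Slc17a7, from 955 TPM in WT vehicle replicate 5 to 1346 TPM in WT vehicle replicate 2, had thalamic and hypothalamic sums of only 5.97 to 7.75 TPM and striatal sums of 202 to 813 TPM. Libraries labelled as the same region thus ranged from nearly free of Slc17a7 to having more Slc17a7 than Gad1.

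The genes whose levels were most like each member's, as Pearson r of log2(TPM + 0.1) over the 48 libraries among 13832 protein-coding genes with a mean of at least 1 TPM, are given as a description. For Gad1 the 3 nearest were Slc32a1 (r = 0.88), the homeobox gene Gbx1 (0.86) and Elmo1 (0.84). For Gad2 they were Slc32a1 (0.91), the calcium channel subunit gene Cacna2d2 (0.88) and the transcription factor gene Zfhx3 (0.88), and for Slc32a1 they were Pbx3 (0.91), Gad2 (0.91) and Cacna2d2 (0.90). For Slc17a7 they were Neurod2 (0.98), Cck (0.97) and Rtn4rl2 (0.96), the first of which is in the pallial list. For Slc17a6 they were Cib2 (0.96), Tmem145 (0.96) and the potassium channel gene Kcna3 (0.94), and for Slc17a8, at lower values, Gpr83 (0.79), Meis2 (0.79) and Scube3 (0.78).

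The transcription factors of GABA neurons did not all follow the GABA genes. Isl1, a factor of striatal and cholinergic lineages, had r = 0.82 with Slc32a1, and Dlx5 and Dlx6 had 0.66 and 0.69. Dlx1 had -0.18 with Slc32a1 and -0.30 with Gad1, but 0.83 with Slc17a6, and Sp8 had 0.75 with Slc17a6. Dlx5 and Dlx6 had -0.56 and -0.57 with Slc17a6 and 0.69 and 0.75 with Slc17a8. Within a single gene family, the members thus lay at opposite ends of the axis from Slc17a6 to Slc17a8. The cholinergic genes Chat, Slc5a7 and Slc18a3 had 0.77, 0.77 and 0.79 with Gad1 and 0.69, 0.69 and 0.66 with Slc17a8. The thalamic and hypothalamic list was likewise uneven, since Gbx2 and Nkx2-1 had 0.83 and 0.81 with Gad1 but 0.04 and -0.05 with Slc17a6, while Lhx9 had -0.17 and 0.82. Tcf7l2 and Lef1 had 0.51 and -0.05 with Slc17a6. In the amygdala list, r with Slc17a6 was 0.78 for Tac2, 0.49 for Crh, 0.435 for Nts and 0.23 for both Rspo2 and Tshz1. It was 0.10 for Prkcd and -0.31 for both Lmo3 and Foxp2.

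The groups were then compared to ask whether genotype, IMN, FLX or their interaction moved the members. limma on log2(TPM + 0.1), with p-values adjusted over all genes tested, called 0 of 6 members in each of the 12 comparisons, and all 6 passed the filter on low values in each. The share of all tested genes called was 0.708% for Brd1+/- against WT under vehicle, 0.017% under IMN and 1.54% under FLX. It was 0% for IMN and 0.335% for FLX against vehicle in WT, 0.776% and 0.731% in Brd1+/-, and 0% for FLX against IMN in both genotypes. The FLX share in WT rested on single libraries, as it was 4.11% without WT vehicle replicate 1 and 0.00429% without WT FLX replicate 7. The share called was 0.536% and 1.71% for the IMN and FLX interactions with genotype and 0.0215% for genotype pooled over treatments. Against these shares a count of 0 of 6 is no result about the members. Over the 12 comparisons, 3 of 72 member values had an unadjusted p under 0.05, all in comparisons with FLX, where 16.6% (genotype under FLX) and 16.8% (interaction) of all tested genes did.

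Exact permutation tests of the 9 pairwise comparisons (two-sided, 12870 arrangements, smallest possible p 0.0001554) gave 1 of 54 values with p under 0.05 and 0 after adjustment over the 9 comparisons of a gene. In none of the 54 did the groups fail to overlap. Both counts were made for the members only, without a share over all genes, so they are no result about the members. The comparisons with vehicle share the vehicle libraries of a genotype, and those of FLX and IMN with each genotype share theirs, so they are not independent. Vehicle and drug-treated mice carry separate ranges of sample codes, so in comparisons with vehicle, drug and code range cannot be told apart.

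Gad1 was the member held most tightly. Its group medians (with lowest and highest library) were 329 TPM (227 to 540) in WT vehicle, 427 (270 to 744) in Brd1+/- vehicle and 408.3 (230 to 843) in WT IMN. They were 354.4 TPM (186 to 503) in Brd1+/- IMN, 407.3 (208 to 749) in WT FLX and 360 (241 to 512) in Brd1+/- FLX. All 6 ranges overlapped, and each group reached down to 270 TPM or lower and up to 503 TPM or higher. The group means ran from 359 ± 96.9 TPM in Brd1+/- IMN to 459 ± 205 TPM in WT IMN, and neighbours in that order differed by less than their SD. Its 9 pairwise differences lay between -0.31 and 0.31 in log2, with 95% confidence limits reaching from -0.82 to 0.84.

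Gad2 medians were 159 TPM (76.4 to 349) in WT vehicle, 241 (123 to 340) in Brd1+/- vehicle and 262 (99.4 to 385) in WT IMN. They were 219 TPM (74.9 to 297) in Brd1+/- IMN, 274 (92.0 to 354.8) in WT FLX and 189 (86 to 294) in Brd1+/- FLX. The WT FLX group had the highest median and the WT vehicle group the lowest, with overlapping ranges. The difference of FLX from vehicle in WT was 0.60 in log2 (limma adjusted p = 0.352), and the interaction of FLX with genotype was -0.93 ± 0.41 (SE, limma adjusted p = 0.243), neither of which passed the test.

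Slc32a1 medians were 157 TPM (64.96 to 275) in WT vehicle, 218 (116 to 277) in Brd1+/- vehicle and 209 (88.2 to 300.0) in WT IMN. They were 183 TPM (41.4 to 228) in Brd1+/- IMN, 194 (91.0 to 311) in WT FLX and 162 (55.5 to 213) in Brd1+/- FLX. The vesicular transporter had the same direction of FLX interaction as Gad2, also at -0.93 (SE 0.42, limma adjusted p = 0.258), and did not pass the test either. Its pairwise differences lay between -0.48 and 0.45 in log2, with 95% limits from -1.08 to 1.11.

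Slc17a7 medians were 478 TPM (6.56 to 1346) in WT vehicle, 134 (1.99 to 608) in Brd1+/- vehicle and 42.7 (6.16 to 1247) in WT IMN. They were 244 TPM (10.0 to 1083) in Brd1+/- IMN, 41.95 (3.42 to 739) in WT FLX and 525.6 (1.87 to 1144) in Brd1+/- FLX. Medians thus differed by over 10-fold while every group reached from 10.0 TPM or lower up to 608 TPM or higher. The largest pairwise difference, FLX against vehicle in WT, was -2.40 in log2 (SE 1.19, limma adjusted p = 0.323). The 95% limits over the 9 pairwise comparisons reached from -4.93 to 4.55 in log2, so differences of several-fold in either direction lay within the error.

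Slc17a6 gave the largest difference relative to its error. Its medians were 30.9 TPM (0.0850 to 76.7) in WT vehicle, 23.0 (0.611 to 82.2) in Brd1+/- vehicle and 24.5 (3.39 to 128) in WT IMN. They were 20.96 TPM (1.04 to 126.2) in Brd1+/- IMN, 82.8 (4.33 to 143) in WT FLX and 12.5 (0.211 to 25.9) in Brd1+/- FLX. Under FLX, 6 of 8 WT libraries lay above every Brd1+/- library, and the other 2 lay within the Brd1+/- range. The means were 77.4 ± 50.3 TPM in WT FLX and 13.5 ± 8.00 TPM in Brd1+/- FLX (SD, n = 8 each).

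On the log2 scale the Brd1+/- FLX libraries were at -2.55 relative to WT FLX (SE 0.86, 95% limits -4.37 to -0.73), a 5.86-fold higher level in WT with limits of 1.66 and 20.7. The unadjusted p was 0.00883 and the limma adjusted p over 23635 genes was 0.139, so it did not pass. The exact permutation p was 0.00995, or 0.0895 adjusted over the 9 comparisons of the gene. Without Brd1+/- FLX replicate 2, the library with the striatal pole described above, the difference was -1.86 (limma adjusted p = 0.147). FLX against vehicle was 1.95 in WT (SE 1.10, limma adjusted p = 0.391), and the interaction was -2.79 (SE 1.55, limma adjusted p = 0.372).

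Genes of the thalamic and hypothalamic list moved with this difference, and whether their RNA came from outside the amygdala was not tested. The thalamic and hypothalamic genes summed to between 27.6 and 113 TPM in WT FLX with a median of 49.6 TPM, and to between 7.35 and 24.7 TPM in Brd1+/- FLX with a median of 15.9 TPM, without overlap. Of the 13 genes in that list, 10 were tested, 7 had an unadjusted p under 0.05 and were lower in Brd1+/-, and 2 of these, Fezf1 and Lhx5, were called, against 16.6% of all genes at an unadjusted p under 0.05 in either direction and 1.38% called lower. Each of these calls was lost in 8 of 16 fits that left out 1 library, with the highest adjusted p (0.0748 and 0.0679) without WT FLX replicate 7. In Brd1+/- FLX both genes were near the floor, at means of 0.0951 TPM (Fezf1) and 0.0950 TPM (Lhx5). Their WT FLX means were 5.96 ± 7.45 and 6.655 ± 6.58 TPM (SD). The WT FLX libraries alone were enough for Lhx5 to pass the filter, with the lowest at 0.195 TPM. Its call thus rests on the group where it was high. The median difference of the 10 tested genes was -1.91 in log2 against -0.056 over all genes tested. Sim1 and Nr5a1 were among those not tested there and were listed at 0 in 20 and 34 of the 48 libraries. Striatal sums were 228 to 2116 TPM in WT FLX and 252 to 8487 TPM in Brd1+/- FLX, and pallial sums 332 to 1833 and 834 to 2954 TPM. Nrgn and Camk2a, which are also made by striatal neurons, carry most of the pallial sum. The 2954 TPM was in Brd1+/- FLX replicate 2, which had the lowest pallial score of the 48 libraries (1.72). The part of tissue content in the Slc17a6 difference was not tested.

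Slc17a8 medians were 1.10 TPM (0.515 to 7.55) in WT vehicle, 1.80 (0.123 to 7.08) in Brd1+/- vehicle and 2.29 (0.310 to 6.06) in WT IMN. They were 2.25 TPM (0.374 to 6.98) in Brd1+/- IMN, 1.78 (0.379 to 4.88) in WT FLX and 2.26 (0.496 to 6.57) in Brd1+/- FLX. The groups covered nearly the same range. Pairwise differences lay between -0.19 and 0.44 in log2, with 95% limits from -1.67 to 1.76. Pooled over treatments, the genotype difference (Brd1+/- minus WT, log2) was -0.07 for Gad1, -0.08 for Gad2, -0.11 for Slc32a1, 0.44 for Slc17a7, -0.90 for Slc17a6 and 0.13 for Slc17a8, with limma adjusted p between 0.725 and 0.954.

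**Figure D5:**
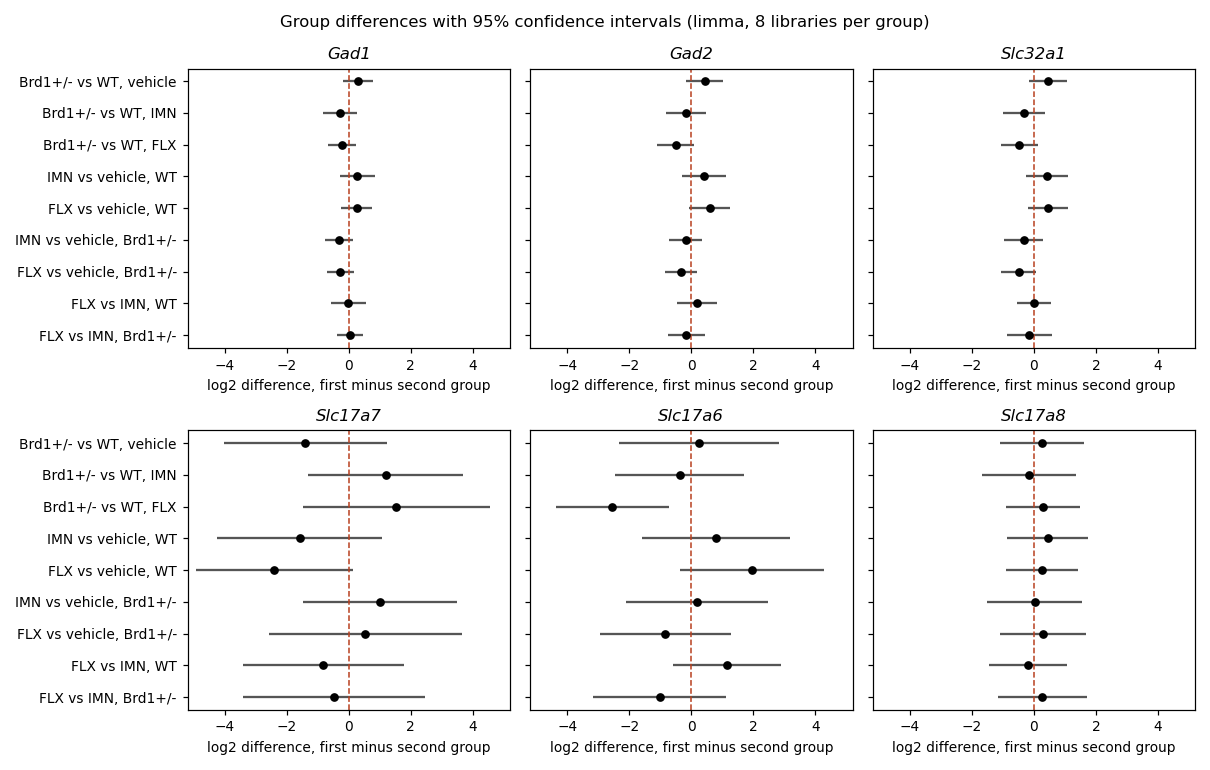
Difference between groups in log2(TPM + 0.1) with its 95% confidence interval for the 6 genes in the 9 pairwise comparisons, from limma. Intervals of Gad1 stay within -0.82 and 0.84, those of Slc17a7 and Slc17a6 span several log2 units, and the Slc17a6 interval for Brd1+/- against WT under FLX (-4.37 to -0.73) leaves out 0 without passing the adjusted test.

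The genes that handle GABA and glutamate outside the vesicle were examined as lists beside the members. Of the 7 GABA handling genes, 6 were tested between the genotypes under FLX and 2 were lower in Brd1+/-, with a median of -0.47 in log2 against -0.056 over all genes. Slc6a11, the glial GABA transporter GAT3, averaged 294 ± 104 TPM in WT FLX and 112 ± 55.7 TPM in Brd1+/- FLX, or -1.45 ± 0.30 in log2 (SE; limma adjusted p = 0.0292). Slc38a1, which carries glutamine into GABA neurons, averaged 93.8 ± 15.3 and 55.6 ± 11.6 TPM, a difference of -0.76 ± 0.13 (limma adjusted p = 0.0127), and its ranges (71.7 to 113 and 43.2 to 70.6 TPM) did not overlap. Over all genes tested in this comparison, 1.38% were called lower in Brd1+/-, and the share with no overlap was not computed.

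In the interaction of FLX with genotype, 4 of the 7 GABA handling genes passed the test with a more negative FLX effect in Brd1+/- (1.53% of all genes tested did), with a median of -0.87 against -0.10 over all genes. These were Slc6a11 at -2.38 ± 0.52 (SE, limma adjusted p = 0.0123), Slc38a1 at -0.97 ± 0.22 (0.0193), Aldh5a1 at -0.68 ± 0.17 (0.0285) and Abat at -0.87 ± 0.23 (0.0476), the last pair being the enzymes that break GABA down. Slc6a11 averaged 112 ± 68.4 TPM in WT vehicle and 294 ± 104 in WT FLX, but 203 ± 111 in Brd1+/- vehicle and 112 ± 55.7 in Brd1+/- FLX. The Abat call was lost in 23 of 32 fits that left out 1 library and the Aldh5a1 call in 9, while those of Slc6a11 and Slc38a1 were lost in 0. In the WT-to-Brd1+/- comparison under FLX the Slc6a11 call was lost in 7 of 16 such fits, with the highest adjusted p, 0.0712, without WT FLX replicate 7, and that of Slc38a1 in 0. Without Brd1+/- FLX replicate 8, which had the highest choroid plexus sum of this comparison (29052 TPM), Slc6a11 was at -1.38 (limma adjusted p = 0.0554). Without WT FLX replicate 2, which had the next highest sum (8813 TPM), Slc6a11 was at -1.405 (limma adjusted p = 0.0608).

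Of the 12 glutamate handling genes, Gls2, a glutaminase that makes glutamate from glutamine, was lower in Brd1+/- than in WT under FLX. It averaged 16 ± 5.23 TPM in Brd1+/- FLX and 38.0 ± 7.16 TPM in WT FLX (log2 difference -1.31 ± 0.22 SE, limma adjusted p = 0.0122). Its interaction was -1.46 ± 0.33 (limma adjusted p = 0.0156), and neither call was lost when any 1 library was left out. Glul, the glial glutamine synthetase, was higher under FLX than vehicle in WT, at a mean of 1087 TPM (852 to 1333) against 731 TPM (619 to 971), with a difference of 0.58 in log2 (limma adjusted p = 0.0399), a call lost in 11 of 16 fits that left out 1 library, with the highest adjusted p, 0.107, without WT FLX replicate 7. Glial markers moved with it, since 3 of 6 astrocyte and 7 of 8 oligodendrocyte genes were higher at an unadjusted p under 0.05 and 0 of either were called. Astrocyte genes summed to 773 to 1278 TPM in WT vehicle and 1099.7 to 1995 TPM in WT FLX, and oligodendrocyte genes to 676 to 11090.5 and 1961 to 8483 TPM, and their part in the Glul difference was not tested. For FLX against vehicle in WT, 16.8% of all genes tested had an unadjusted p under 0.05 in either direction. In that comparison 0.28% were called higher. No other gene of the glutamate handling list passed in either comparison.

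Beside these, the potassium channel gene Kcnc1 and the neuronal tubulin gene Tubb3 were lower in Brd1+/- under FLX, at -0.96 (limma adjusted p = 0.0113) and -0.51 (0.0328). With 1 library left out, the Kcnc1 call was lost in 0 of 16 fits and the Tubb3 call in 9, with the highest adjusted p, 0.0819, without WT FLX replicate 7. The glycine transporter gene Slc6a9 and Kcnc1 had interactions of -1.86 and -1.45 (limma adjusted p = 0.0426 and 0.00535), and the Slc6a9 call was lost in 21 of 32 fits that left out 1 library, with the highest adjusted p, 0.0822, without Brd1+/- vehicle replicate 2. Of 130 list genes beside the members, at least 120 were tested in each comparison. For genotype under FLX 7 were called, where 1.54% of all genes tested were, and 7 for the FLX interaction, where 1.71% were. FLX in WT gave 1 call, where 0.335% of all genes tested were called. Each of the other 9 comparisons gave 0, where at most 0.776% of all genes tested were called. Oligodendrocyte genes moved with the FLX interaction, with 8 of 8 at an unadjusted p under 0.05 and lower, a median of -2.07 in log2 and 0 called. Of all genes tested in that interaction, 16.8% had an unadjusted p under 0.05 in either direction. The summed level of the oligodendrocyte genes was 1961 to 8483 TPM in WT FLX and 898 to 17111 TPM in Brd1+/- FLX. The levels of Slc6a11 and Slc38a1 had r = 0.73 and 0.73 with Slc17a6 over the 48 libraries. Those of Tubb3, Kcnc1, Aldh5a1, Slc6a9, Gls2 and Abat had 0.69, 0.62, 0.57, 0.44, 0.36 and 0.10 with it. The part of tissue content in the differences of all these genes was not tested.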

How the data were processed

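RNA from right amygdala punches of 48 female mice was sequenced as 50-base single-end reads. According to the study's methods and the labels, the authors trimmed the reads (Trimmomatic), aligned them with HISAT2 2.1.0 to GRCm38 and quantified genes with StringTie 1.3.4. The deposited values are TPM per gene and library, which keep no depth, so precision rests on the 8 libraries a group. The strand setting is not given in the sources used here.

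From these values, log2(TPM + 0.1) was computed and genes at 0.1 TPM or more in at least 8 libraries of a comparison were tested with limma 3.58.1 (R 4.3.3, empirical Bayes with trend), fitted to the compared groups only. A gene was called at a Benjamini-Hochberg adjusted p under 0.05 over all genes tested. Fold changes on this scale understate changes of low genes. The 12 comparisons were 9 pairs of groups, 2 interactions of drug with genotype and genotype pooled over treatments. Exact permutation tests and correlations used Python 3.11.15, NumPy 2.4.6, SciPy 1.17.1 and pandas 2.3.3. The limma step was tested on simulated data with known changes.

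Groups came from the titles in the labels. The series' own design text names further brain regions, and the amygdala of each sample's labels was followed. The members and marker lists were chosen with earlier results of these data known. Named are the 6 members, the 3 genes nearest to each member over the libraries, list genes called in a comparison and the highest gene of each list (some list genes are not reported here), while list genes named for their correlation, and single libraries, were chosen after their values were seen. Gene positions are from GENCODE M21 (52489 of 52636 IDs found) and start sites from RefSeq, matched for 6 of 6 members. Each result was recomputed with a pseudocount of 0.01 or 1 and without the filter or with one at 1 TPM. Further settings were median-ratio scaling, quantile normalization, no trend, 1 fit of all libraries, a replicate block and a sample code term. The code term set codes under 130 apart within vehicle mice and codes under 400 apart within drug-treated mice. It does not separate drug from the code ranges of vehicle and drug mice, or genotype from the codes over 400. Each library was also left out in turn and, chosen after seeing the data, both libraries richest in choroid plexus genes were left out.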

Additional observations from a re-analysis of the deposited data

Results flagged for a closer look

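Among the 36 sets of 8 libraries (6 genes in 6 groups), 4 held a library far from its group, by a gap to the nearest other library that was more than 0.526 of the group's range. For normally distributed values chance gives such a gap in about 1 of 20 sets, and TPM of these genes are skewed. On the log2(TPM + 0.1) scale the gaps of Gad2 and Slc32a1 below were 0.80 and 0.78 of the range, while those of Slc17a7 and Slc17a8 were 0.26 and 0.42 and did not pass that limit. In WT FLX replicate 6, Gad2 was the lowest of its group at 92.0 TPM, with the others at 271 to 354.8 TPM, and in the same library Slc17a7 was the highest at 739 TPM, with the others at 3.42 to 180.0 TPM. In Brd1+/- IMN replicate 3, Slc32a1 was the lowest at 41.4 TPM, with the others at 155.4 to 228 TPM. In WT vehicle replicate 3, Slc17a8 was the highest at 7.55 TPM, with the others at 0.515 to 2.56 TPM.

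The interaction of FLX with genotype passed the limma test for 7 genes of the lists, each with a more negative log2 effect in Brd1+/- than in WT. Of all genes tested, 1.53% were called in that direction. The part of tissue content in these interactions was not tested. The interaction was -2.38 for Slc6a11 (adjusted p = 0.0123), -0.97 for Slc38a1 (0.0193), -0.87 for Abat (0.0476) and -0.68 for Aldh5a1 (0.0285), genes of GABA uptake, supply and breakdown. It was -1.46 for Gls2 (0.0156), -1.86 for Slc6a9 (0.0426) and -1.45 for Kcnc1 (0.00535). The calls were not equally firm, since that of Abat was lost in 10 of 11 alternatives and 23 of 32 fits that left out 1 library, that of Slc6a9 in 6 and 21, that of Aldh5a1 in 3 and 9, those of Slc6a11 and Slc38a1 in 1 and 0, and those of Gls2 and Kcnc1 in 0 and 0. No member of the transmitter set had an interaction past the threshold, the closest being Gad2 at -0.93 (limma adjusted p = 0.243), which became -1.14 (0.1003) without WT FLX replicate 6, the library named above.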

How the results depend on the processing

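The count of members called was 0 in all 12 comparisons under every alternative, in 384 fits of which 256 left out 1 library. The closest value was Slc17a6 between the genotypes under FLX without WT FLX replicate 4, at -3.06 in log2 (limma adjusted p = 0.0540), against a range of 0.103 to 0.262 over the other settings that kept all libraries. The count over all genes moved more. For genotype under FLX it was 364, but 224 without the filter, 213 without trend, 0.533% of genes in place of 1.54% with the code term, 143 without Brd1+/- FLX replicate 8, 29 in 1 fit of all libraries and 70 to 490 with 1 library left out. For FLX in WT it was 79, but 51 without the filter, 128 at 1 TPM, 27 without trend, 10 in 1 fit, 45 with the code term, 1 when WT FLX replicate 7 was dropped and 956 (4.11%) when WT vehicle replicate 1 was. For genotype under vehicle it was 172 against 24 with a filter at 1 TPM and 1.46% of genes (in place of 0.708%) in 1 fit of all libraries, and for IMN and FLX in Brd1+/- 188 against 23 to 439 and 178 against 24 to 415. For the IMN and FLX interactions it was 143 against 15 to 151 and 455 against 247 to 752, and for the pooled genotype 6 against 3 to 19. The median of all genes in the FLX interaction, -0.10 in log2, was 0.01 after quantile normalization. The replicate numbers did not pair the libraries, since 2 to 6 of 8 same-numbered pairs correlated over 0.1 and 0 to 2 of 8 libraries correlated best with their own number. With a replicate block, 0 members were called and the counts over all genes were 63 for genotype under vehicle, 46 under FLX, 0 for FLX in WT, 87 and 81 for IMN and FLX in Brd1+/- and 330 for the FLX interaction. With the block, 9 of the 15 list gene calls were lost. These were Slc6a11, Slc38a1, Fezf1, Lhx5 and Tubb3 between the genotypes under FLX (adjusted p = 0.0704, 0.0624, 0.0770, 0.0963 and 0.0624), Glul for FLX in WT (0.125) and Abat, Aldh5a1 and Slc6a9 in the FLX interaction (0.0911, 0.0574 and 0.0528). Of 193 alternative values of the 15 list gene calls, 137 stayed past the threshold and 56 did not, and the cause was not tested. Correlated member pairs numbered 10, or 11 with median-ratio scaling and with group means removed, and list relations 28, with 24 after median-ratio scaling, 27 with a pseudocount of 1 and 30 without both libraries richest in choroid plexus genes. Only values near 0 changed sign. Slc32a1 with Slc17a6 went from -0.02 to 0.012 with a pseudocount of 1, and Slc17a6 with the choroid plexus score from 0.02 to -0.041 with a pseudocount of 1 and -0.0044 after median-ratio scaling. TPM keep no read depth, so low values of Slc17a8 and of Slc17a6 near 0.1 TPM have unknown counting error.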

Other observations

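The marker lists place the punches. The 10 striatal genes, led by Ppp1r1b at a mean of 788 TPM, summed to between 202 and 8816 TPM with a median of 533 TPM, and the 13 thalamic and hypothalamic genes, led by the transcription factor gene Tcf7l2 at 6.98 TPM, to between 5.95 and 116 TPM. The pallial genes, led by Nrgn at 880 TPM, summed to between 300 and 3075 TPM, although Nrgn and Camk2a, which are also made by striatal neurons, carry most of that sum. The interneuron list, led by Sst at 779 TPM, summed to between 381.7 and 2194 TPM. GABA lineage factors, led by Dlx6 at 27.0 TPM, stayed within 64.0 and 205 TPM, a narrower span than the regional lists. The 8 pan-neuronal genes, led by Snap25 at 1516 TPM, summed to between 2358 and 5464 TPM.

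Among glial and vascular lists, oligodendrocyte genes had the widest span beside choroid plexus, at 676 to 17111 TPM. Astrocyte genes, led by Aldoc at 608 TPM, summed to 728 to 2304 TPM, microglial genes, led by C1qa at 86.6 TPM, to 149 to 418 TPM, and endothelial genes, led by Slco1a4 at 35.8 TPM, to 71.6 to 144 TPM. Choroid plexus genes, led by Ttr at 1822 TPM, ran from 8.79 to 29697 TPM with a median of 23.9 TPM. Beside the members, GABA handling genes summed to 541 to 1498 TPM and glutamate handling genes (led by Glul at 894 TPM) to 2161 to 3206 TPM, the second varying by less than the vesicular transporters did. Genes of other transmitters, led by Slc6a9 at 54.9 TPM, summed to 27.1 to 600.3 TPM.

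Slc1a6, the glutamate transporter EAAT4, had r = 0.89 with Slc17a6 over the 48 libraries, and Gls2 had -0.39 with Slc17a7 and 0.36 with Slc17a6. Abat, which breaks GABA down, had 0.76 to 0.78 with the 3 GABA genes and -0.84 with Slc17a7. The points of these correlations share libraries and punch position, and they are given as a description.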
